A study of Homo sapiens with 16 samples.

Results

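The miR-34 family was examined on 16 single-color microarrays of OE19 cells, a human esophageal adenocarcinoma (EAC) cell line. Control cells (8 arrays) were cultured without telmisartan, an angiotensin II type 1 receptor blocker, and the other 8 arrays held cells given 100 μM telmisartan for 48 h. Both groups were numbered 1 to 8, and since no source says whether each array had a culture of its own, the p-values cover the spread among these arrays alone, which could be technical. The members were 7 probes chosen by name from 2565 human miRNA probes: hsa-miR-34a-5p, hsa-miR-34a-3p, hsa-miR-34b-5p, hsa-miR-34b-3p, hsa-miR-34c-5p, hsa-miR-34c-3p and hsa-miR-449a. The probes were chosen by family, although earlier results of these data were known when they were chosen.

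A miRNA guides the silencing machinery to mRNAs that pair with its seed, the stretch close to its 5′ end. miR-34a comes from a gene of its own, and miR-34b and miR-34c come from 1 shared gene. The miR-34 products are known to repress mRNAs for cell cycle and survival proteins, among them CDK4, CDK6, CCND1, MET and BCL2. miR-449a comes from another gene, is regulated by E2F1 and reads many of the same targets through the same seed. miR-34b, miR-34c and the miR-449 miRNAs are known for high levels in ciliated epithelium, whereas miR-34a is found in many tissues.

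The mature sequences show which members can read the same target sites. They are given 5′ to 3′ as RefSeq lists them for GRCh38.p14, with bases 2 to 8, the seed, in capitals.
hsa-miR-34a-5p: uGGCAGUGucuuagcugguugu
hsa-miR-449a: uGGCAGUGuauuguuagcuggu
hsa-miR-34b-5p: uAGGCAGUgucauuagcugauug
hsa-miR-34a-3p: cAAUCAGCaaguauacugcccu
hsa-miR-34b-3p: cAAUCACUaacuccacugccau
hsa-miR-34c-3p: aAUCACUAaccacacggccagg

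No RefSeq sequence was matched to hsa-miR-34c-5p, so its seed, place and matching bases are not given. Among the members listed above, hsa-miR-34a-5p and hsa-miR-449a had the same seed. The seed of hsa-miR-34b-5p shared the 6 letters GGCAGU with it when moved by 1 base. The other arms, which come from the opposite strand of each hairpin, had 3 different seeds. Those of hsa-miR-34b-3p and hsa-miR-34c-3p shared the 6 letters AUCACU when moved by 1 base. hsa-miR-34a-5p (chr1:9151735-9151756, minus strand) and hsa-miR-34a-3p (chr1:9151693-9151714, minus strand) lie within the span of MIR34AHG, the host gene of MIR34A. hsa-miR-34b-5p (chr11:111512950-111512972, plus strand), hsa-miR-34b-3p (chr11:111512987-111513008) and hsa-miR-34c-3p (chr11:111513484-111513505) lie within the spans of MIR34BHG and BTG4. hsa-miR-449a (chr5:55170586-55170607, minus strand) lies within the span of CDC20B. Without gaps, 15 of the 22 bases of hsa-miR-34a-5p matched hsa-miR-449a and 12 matched hsa-miR-34b-5p. Each miRNA was read by 1 probe, and signal shared between probes for similar miRNAs was not tested.

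A probe was called detected on an array when its raw intensity was more than 2 SD above the mean of that array's blank spots. Only hsa-miR-34a-5p was detected on all 16 arrays. The other 6 members were detected in 12 of 96 combinations of member and array (12.5%), and 11 arrays had none of them. The levels of those 6 were therefore known on few arrays, and no fold change was computed for them. In RNA from whole cultures, fewer cells with a miRNA and less of it per cell cannot be told apart.

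hsa-miR-34a-3p, the less abundant arm of the miR-34a hairpin in most tissues, was detected on control array 3 (background-subtracted intensity 3.44) and on telmisartan array 6 (1.41). hsa-miR-34b-5p was detected on no control array and on 2 telmisartan arrays, number 4 (2.49) and number 6 (3.39). hsa-miR-34b-3p, its partner from the same hairpin, was detected on control arrays 3 (5.70) and 5 (2.65) and on telmisartan array 4 (1.97). These few values lay in both groups for both hairpins, although hsa-miR-34b-5p itself was seen only with telmisartan.

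hsa-miR-34c-5p was detected on none of the 16 arrays. hsa-miR-34c-3p was detected on control arrays 5 (2.39) and 6 (1.79) and on telmisartan arrays 4 (2.74) and 6 (2.80). hsa-miR-449a was detected on control array 6 alone (1.81). Thus no member besides hsa-miR-34a-5p was detected on more than 2 arrays of either group. By two-sided Fisher's exact test of 8 against 8 arrays, the difference for hsa-miR-34b-5p gave p = 0.467 and the other tested members gave p = 1. Over all 1840 probes tested in this way 0 passed after Benjamini-Hochberg adjustment (0.00%) and 0 had an unadjusted p under 0.05.

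All 12 of those detections fell on 5 arrays, control 3, 5 and 6 and telmisartan 4 and 6. These arrays had 947, 1621, 1460, 1358 and 1885 detected probes, against medians of 804 for the control arrays and 931 for the telmisartan arrays. Control array 7 and telmisartan arrays 2 and 5 had 961, 1344 and 1045, more than control array 3, and none of the 6 members. The blank spots themselves were above the detection level in 4.38% to 7.5% of cases per array. Expressed in blank-spot SDs above background, the medians over 16 arrays were 0.78 for hsa-miR-34b-5p, 0.53 for hsa-miR-34b-3p, 0.32 for hsa-miR-34a-3p, 0.27 for hsa-miR-34c-3p, 0.19 for hsa-miR-449a and -0.65 for hsa-miR-34c-5p. The typical reading of each of the 6 was thus within 1 SD of the blanks. Low detection was common on these arrays, since 1377 of the 2565 probes (53.7%) were detected on 4 arrays or fewer. When the highest of the 16 arrays' lowest detected values, a background-subtracted intensity of 5.29 on telmisartan array 7, was applied to every array, hsa-miR-34a-5p passed on 15 arrays (7 control and 8 telmisartan), hsa-miR-34b-3p on 1, and the other members on 0.

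**Figure D1:**
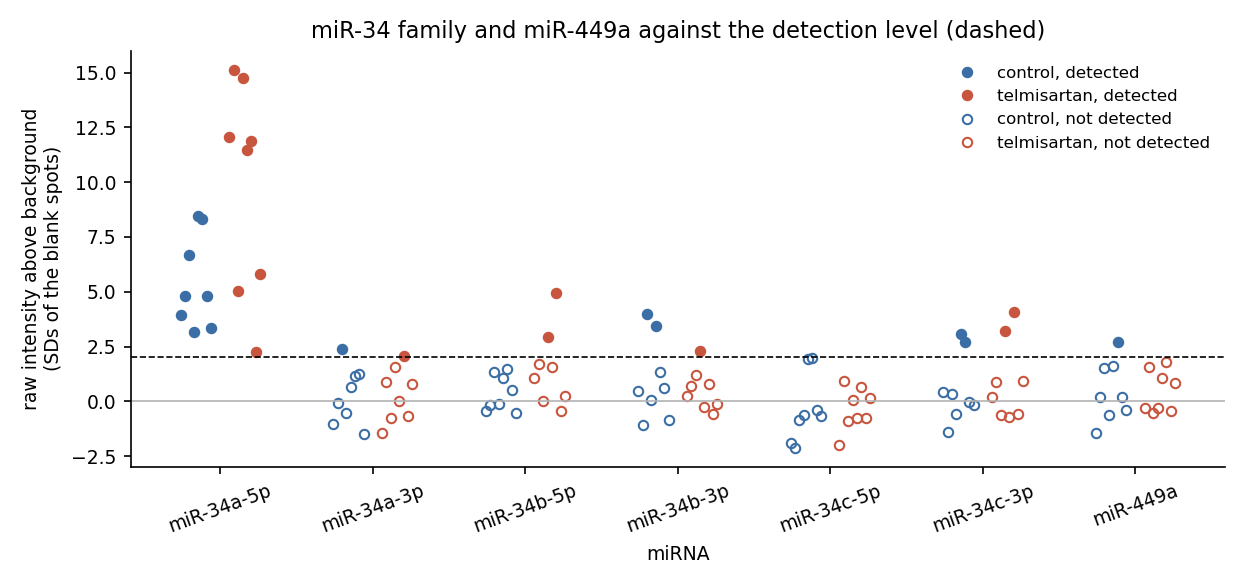
Raw intensity above background of each of the 7 members on each of the 16 arrays, in SDs of that array's blank spots, control in blue and telmisartan in red, filled where detected and open where not, with the detection level at 2 SD dashed. hsa-miR-34a-5p lies above the level on every array, whereas the other 6 members pass it in 12 of 96 cases.

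hsa-miR-34a-5p, the form that carries most miR-34a activity, was weak but measured throughout. Its background-subtracted intensity on control arrays 1 to 8 was 4.97, 5.35, 9.56, 6.00, 6.56, 5.52, 5.67 and 6.45. On telmisartan arrays 1 to 8 it was 14.0, 8.97, 10.9, 12.6, 12.6, 8.20, 5.96 and 7.28. The medians were 5.84 for control and 9.93 for telmisartan, and the groups overlapped, because control array 3 was brighter than telmisartan arrays 2, 6, 7 and 8. The readings stood 3.18 to 8.45 blank-spot SDs above background in control cells (median 4.81) and 2.26 to 15.1 in telmisartan-treated cells (median 11.7). Telmisartan array 7 was nearest to the limit, where hsa-miR-34a-5p was 1.13 times the lowest detected value of that array.

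The deposited normalized values put the 382 probes detected on all 16 arrays on 1 distribution, and hsa-miR-34a-5p was the only member among them. Its normalized intensity on control arrays 1 to 8 was 8.43, 7.37, 10.2, 10.6, 4.85, 5.57, 6.58 and 5.25. On telmisartan arrays 1 to 8 it was 15.9, 9.73, 11.6, 13.1, 9.57, 5.97, 5.97 and 7.22. Telmisartan arrays 6 and 7 have the same value because the probe took the same rank on both. The telmisartan array was higher in 7 of the 8 same-numbered pairs, with number 7 as the exception. Of the 382 probes, 53 (13.9%) were higher in at least 7 pairs.

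On the log2 scale the normalized level averaged 2.82 ± 0.43 without telmisartan and 3.22 ± 0.52 with it (SD, n = 8 each). The difference, telmisartan minus control, was 0.40 with an SE of 0.23 and a 95% interval from -0.08 to 0.88, a fold of 1.32. It did not pass limma's test after Benjamini-Hochberg adjustment (adjusted p = 0.280). In the same fit 37 miRNAs were higher (9.69%) and 28 were lower (7.33%) with telmisartan, with a median log2 fold change of -0.01 over all 382. hsa-miR-34a-5p was in neither group, and its interval holds both no change and a rise of up to 0.88 on the log2 scale.

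The other scale kept each array's own intensities, divided by that array's median over the 382 probes detected everywhere. With 773 probes detected on at least 4 arrays of each group, the log2 fold change of hsa-miR-34a-5p was 0.47 with an SE of 0.23 and a 95% interval from -0.01 to 0.96, a fold of 1.39. limma gave an adjusted p of 0.355. In this fit 11 miRNAs were higher (1.42%) and 12 were lower (1.55%), and the median log2 fold change of all 773 was -0.08. No other member could enter, since none was detected on 4 arrays of each group. With the replicate number as a block, the count of miRNAs past the threshold in this fit was 41 in place of 23, and hsa-miR-34a-5p remained outside it with an adjusted p of 0.0793.

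**Figure D2:**
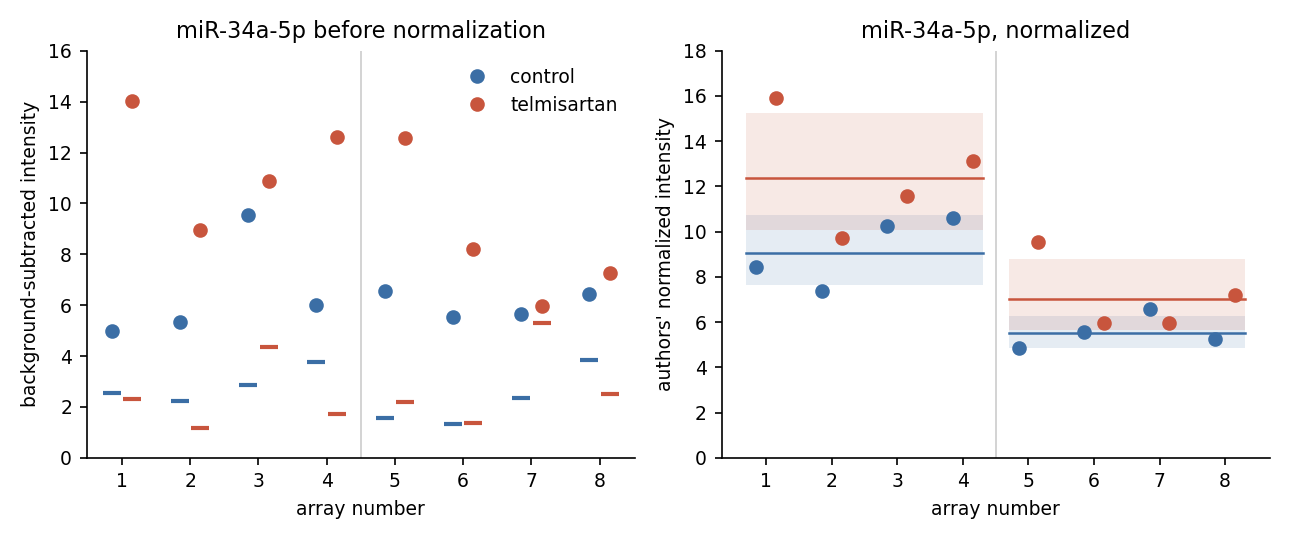
hsa-miR-34a-5p on each array, as background-subtracted intensity on the left with a short bar at the lowest detected value of that array, and as deposited normalized intensity on the right with the mean of the log2 values of arrays 1 to 4 and of arrays 5 to 8 as lines and 1 SD as bands. The groups overlap on both scales, and within each group arrays 1 to 4 lie above arrays 5 to 8 after normalization.

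The normalized level of hsa-miR-34a-5p depended on the array number in both groups. In control cells it was 3.18 ± 0.25 on the log2 scale on arrays 1 to 4 and 2.47 ± 0.19 on arrays 5 to 8 (SD, n = 4 each). In telmisartan-treated cells it was 3.63 ± 0.30 on arrays 1 to 4 and 2.82 ± 0.32 on arrays 5 to 8. Every control array from 1 to 4 was thus above every control array from 5 to 8, 7.37 to 10.6 against 4.85 to 6.58 in normalized intensity, and in treated cells the ranges were 9.73 to 15.9 against 5.97 to 9.57. Before normalization the control sets were not separated in this way. The median background-subtracted intensity over the 382 common probes was 24.8 to 31.8 on control arrays 1 to 4 and 35.9 to 52.6 on control arrays 5 to 8. In treated cells it was 32.7 to 37.4 on arrays 1 to 4 and 33.4 to 56.2 on arrays 5 to 8, which overlap. The part of the scaling in the separation was not tested. The labels name no batch for these sets.

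The change was not found to differ between the sets. The fold of normalized hsa-miR-34a-5p was 1.37 in arrays 1 to 4 and 1.27 in arrays 5 to 8. The difference between the sets was -0.10 on the log2 scale with an SE of 0.25 (limma interaction, adjusted p = 0.765). On the scaled intensities the folds were 1.38 and 1.40 (SE of the log2 difference 0.28, adjusted p = 0.972). With SEs of this size the sets could still differ. With the sets as a block, hsa-miR-34a-5p passed the threshold (limma adjusted p = 0.0273), as 1 of 48 miRNAs (12.6%) that were higher. The log2 fold change was again 0.40, which this block cannot move, with an SE of 0.13. No label defines the sets, and the normalized level of this probe itself differed between them. The refits under this block with other scaling or 1 array left out were added after the values had been seen. The scaled intensities gave 0.47 with an adjusted p of 0.0429 under the same block, as 1 of 23 higher miRNAs (2.98%). Under that block quantile normalization over each array's detected probes gave 0.83 (adjusted p = 0.996). Normexp background correction with an offset of 50 gave 0.022 (adjusted p = 0.679). That offset exceeds the probe's background-subtracted intensity (4.97 to 14.0) and draws its change toward 0 in advance, so this setting cannot decide on the call. The call under the set block was lost on the normalized values without control array 1, 2 or 5 or telmisartan array 1 or 5, with adjusted p-values of 0.0524, 0.0571, 0.0530, 0.0589 and 0.0508. On the scaled intensities it held without control array 3 or 6 or telmisartan array 2, 6 or 7, and was lost without any one of the other 11 arrays (adjusted p up to 0.0881).

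The same values were compared without a model across probes. A two-sided exact permutation test of 8 against 8 arrays gave p = 0.116 for the normalized log2 values and p = 0.0768 for the scaled ones. When the differences of the 8 same-numbered pairs were tested by exact sign changes, p was 0.0234 and 0.0313, where 0.00781 is the smallest p the 8 pairs allow. No label says that arrays of the same number belong together, so the sign-change p-values rest on an assumed pairing. The scaled value was higher with telmisartan in 6 of the 8 pairs. Both exact tests were chosen after the values had been seen.

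**Figure D3:**
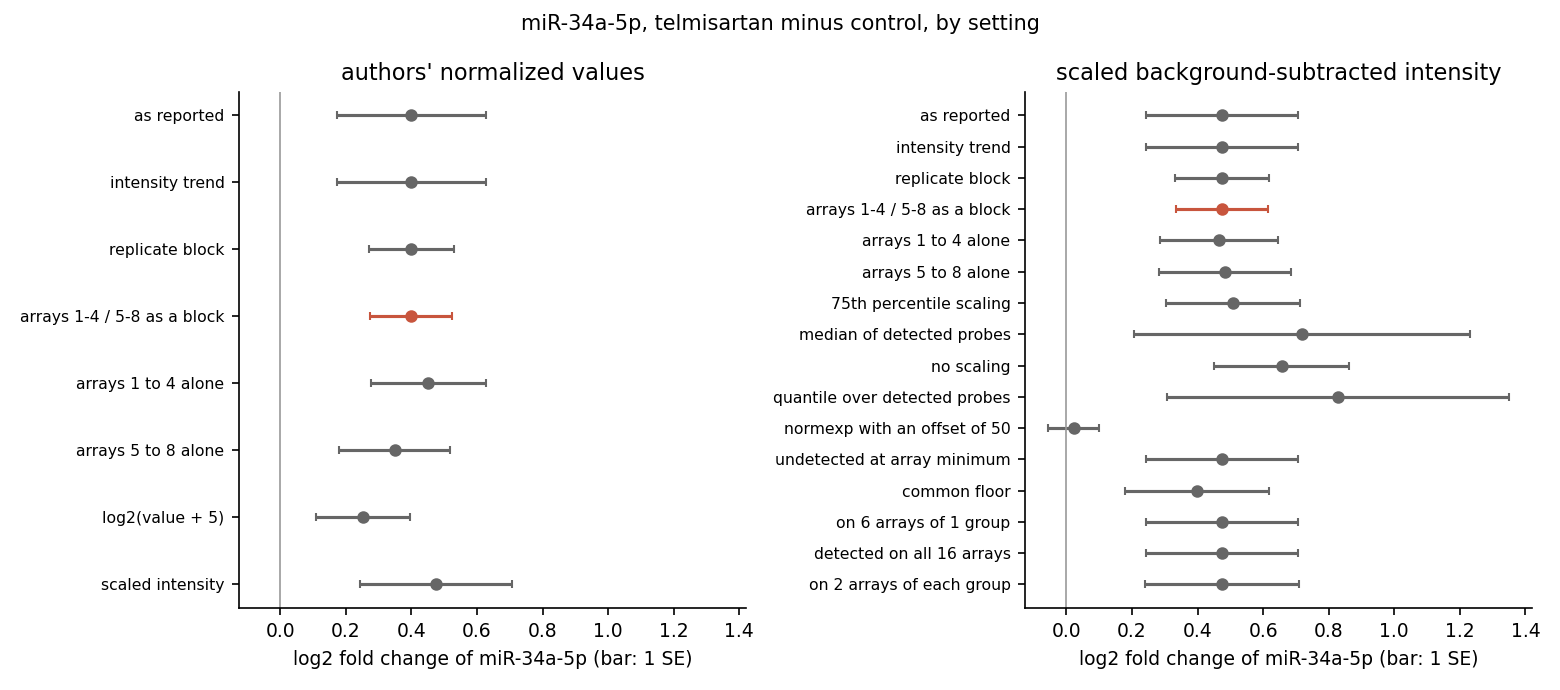
log2 fold change of hsa-miR-34a-5p, telmisartan minus control, with 1 SE under each setting of both fits, red where limma's adjusted p is under 0.05 and grey otherwise. All estimates are above 0, and the fits with the array sets as a block are the ones in red. Settings that change only the test, the block or the filter cannot move the estimate, so the shared sign is not separate evidence.

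**Figure D4:**
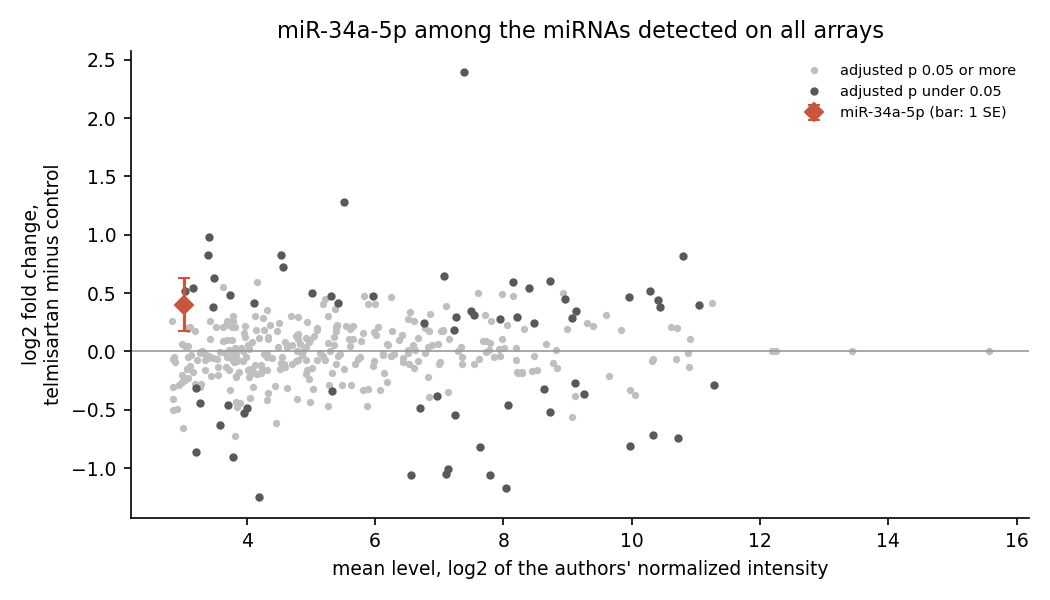
log2 fold change against mean log2 normalized intensity for the 382 probes detected on all 16 arrays, with hsa-miR-34a-5p as a red diamond (bar 1 SE) and dark points for an adjusted p under 0.05. It is among the dim probes of the table, at a log2 fold change of 0.40, and 37 higher and 28 lower miRNAs passed the threshold.

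Other probes on the array read miRNAs with the seeds of the members. hsa-miR-449b-5p has the seed of hsa-miR-34a-5p and hsa-miR-449a, and hsa-miR-449c-5p and hsa-miR-2682-5p have the seed of hsa-miR-34b-5p. Their sequences are shown for comparison with those above.
hsa-miR-449b-5p: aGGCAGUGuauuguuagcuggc
hsa-miR-449c-5p: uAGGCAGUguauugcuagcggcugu
hsa-miR-2682-5p: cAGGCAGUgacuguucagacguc

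Of the 22 bases of hsa-miR-34a-5p, 13 matched hsa-miR-449b-5p, 12 matched hsa-miR-449c-5p and 11 matched hsa-miR-2682-5p. hsa-miR-449b-5p was detected on 0 control and 2 telmisartan arrays, hsa-miR-449c-5p on 0 and 0, and hsa-miR-2682-5p on 1 and 1. Among all probes with these seeds, hsa-miR-34a-5p was therefore the one measured throughout. hsa-miR-449b-3p, from the opposite arm of a miR-449 hairpin, was detected on 5 control and 5 telmisartan arrays, and hsa-miR-449c-3p on 1 and 1.

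Markers of cell types were read from the same arrays. All 6 miRNAs listed for epithelial and columnar cells, such as hsa-miR-200c-3p and hsa-miR-192-5p, were detected on every array. Their summed background-subtracted intensities were 5075 to 9365 without and 5521 to 8955 with telmisartan. Of 11 miRNAs listed for blood, endothelium, mesenchyme, liver, muscle and neurons, 1 was detected on all arrays (hsa-miR-126-3p, listed for endothelium). hsa-miR-451a, listed for erythroid cells, was detected on 14 arrays and the rest on at most 5. The sum of the 11 was 19.3 to 82.0 without and 49.1 to 84.0 with telmisartan. Most of it was hsa-miR-126-3p, at 19.3 to 68.6 and 37.3 to 77.8. hsa-miR-375 of the epithelial list was at 14.4 to 20.9 and 16.9 to 25.8. The 5 listed for ciliated cells, which are miR-34 and miR-449 miRNAs, reached at most 2 arrays each, with sums of 0 to 1.81 and 0 to 6.01.

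On the normalized values 2 of the 6 miRNAs listed for epithelial and columnar cells, hsa-miR-141-3p and hsa-miR-194-5p, fell with telmisartan. The other 4 did not pass the threshold, where 7.33% of all 382 miRNAs fell. hsa-miR-141-3p, a miR-200 family member that guards the epithelial state by repressing ZEB1 and ZEB2, was 173 to 372 in control cells (median 269) and 132 to 169 in telmisartan-treated cells (median 149.2). The fold was 0.566 (limma adjusted p = 0.00222), with no overlap between the groups on this scale. In background-subtracted intensity the groups overlapped, since the lowest control array was at 159.7 and the highest telmisartan array at 175.3. On the normalized values the fall of hsa-miR-141-3p differed between the array sets (limma interaction, adjusted p = 0.00118). The folds were 0.441 in arrays 1 to 4 and 0.727 in arrays 5 to 8. hsa-miR-194-5p, made from the same transcripts as miR-192 and miR-215, had a fold of 0.819 (adjusted p = 0.0313). Leaving out any one of 10 arrays (control 1, 2, 3, 4 or 8, telmisartan 2, 3, 5, 6 or 7) brought its adjusted p to between 0.0535 and 0.0695. hsa-miR-192-5p, hsa-miR-200b-3p, hsa-miR-200c-3p and hsa-miR-375 had folds of 0.959, 0.989, 1.15 and 1.09 (adjusted p = 0.934, 0.958, 0.166 and 0.780). On the scaled intensities neither hsa-miR-141-3p nor hsa-miR-194-5p passed (adjusted p = 0.101 and 0.645), where 1.55% of 773 fell.

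The miRNAs whose pattern over the 16 arrays was most like that of hsa-miR-34a-5p were found by Pearson's r of the log2 scaled intensity, among the 381 others detected everywhere. They were hsa-miR-152-3p (r = 0.867), hsa-miR-30b-5p (0.847), hsa-miR-455-3p (0.843), hsa-miR-342-3p (0.839) and hsa-miR-23b-3p (0.830), a partner of miR-27b and miR-24 in 1 cluster. All points share their arrays and scaling, so these values are descriptions of the 16 arrays. hsa-miR-152-3p, a miR-148 family member known to repress DNMT1, rose with telmisartan on the normalized values by 0.63 on the log2 scale (limma adjusted p = 0.0130). hsa-miR-30b-5p, hsa-miR-455-3p and hsa-miR-342-3p did not pass (adjusted p = 0.301, 0.602 and 0.710). After the group means were removed hsa-miR-152-3p kept r = 0.867 but ranked 4. By the same measure hsa-miR-342-3p, hsa-miR-455-3p, hsa-miR-30b-5p and hsa-miR-23b-3p ranked 6, 8, 12 and 29. Ranked above hsa-miR-152-3p were hsa-miR-4448 (r = 0.888), hsa-miR-24-2-5p (0.883) and hsa-miR-10a-3p (0.868). Their log2 fold changes were -0.19, -0.44 and -0.47 (adjusted p = 0.564, 0.311 and 0.428). hsa-miR-23b-3p had a normalized intensity of 834 to 1260 in control cells and 1026 to 2229 with telmisartan, a fold of 1.44 (adjusted p = 0.0147), although the groups overlapped and the scaled intensities gave an adjusted p of 0.505.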

How the data were processed

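Total RNA was hybridized to single-color 3D-Gene arrays. The authors subtracted the mean of the 320 blank spots (highest and lowest 5% removed) and left undetected spots empty in the deposited intensity columns. The deposited normalized intensity is linear, covers the 382 probes detected on all arrays and has a median of 37.7 per array. Quantile normalization of the background-subtracted intensities rebuilt it to a relative difference of 4.88e-10, and the detection rule disagreed with the files at 0 spots. The labels give 2 names for the dye, Hy3 and Hy5.

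Log2 values were fitted with limma 3.58.1 (lmFit, eBayes) in R 4.3.3, with Benjamini-Hochberg adjustment over all probes fitted and a threshold of 0.05. In the scaled fit undetected values and 10 spots marked as not good were missing. The number of arrays limits the precision. Deviations of same-numbered arrays from their group means were correlated unevenly (r of 0.149 to 0.864 over 382 miRNAs). The closest array had the same number for only 4 of 8, and always lay in the same set, 1 to 4 or 5 to 8. No label pairs the arrays, and the number was used as a block in an alternative only. The miRNAs named were the members, those sharing a seed or miR-449 hairpin, those of the marker lists, and the 5 most alike in pattern. Members and lists were chosen with earlier results of these data known. A pair of further miRNA lists is not reported here. Of the 7 members, 6 were matched to a RefSeq sequence, and hsa-miR-34c-5p was not. Only the fit without a block was tested on simulated data, which held no missing values and no difference between the array sets. Alternatives covered the test, scaling, background, filter, floor, blocks and arrays left out.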

Additional observations from a re-analysis of the deposited data

Results flagged for a closer look

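The background-subtracted intensity of hsa-miR-34a-5p on control array 3, 9.56, lay apart from the other 7 control arrays, of which the next highest was 6.56. The gap was 0.654 of the range of the group, above Dixon's critical value of 0.526 for 8 arrays. Chance gives such a value in about 1 in 20 groups, and 18 groups were examined with 1 found. On the normalized scale control array 3 was 10.2, within the range of the other control arrays.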

How the results depend on the processing

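The log2 fold change of hsa-miR-34a-5p was above 0 under all 8 alternatives on the normalized values (0.25 to 0.47). It was also above 0 under all 16 on the scaled intensities (0.02 to 0.83). These shared signs are not separate evidence. An exact Mann-Whitney test, an intensity trend and both blocks cannot move the estimates of 0.40 and 0.47. On the scaled intensities the detection filters and the fill of undetected values cannot either, since the probe was detected on every array. The threshold was passed under 1 alternative of each scale, the array sets as a block. Leaving out 1 array gave 0.29 to 0.49 (adjusted p 0.179 to 0.477) and 0.39 to 0.58 (0.201 to 0.522). With that block, leaving out 1 array gave 0.34 to 0.45 and 0.40 to 0.53. Under it normexp with an offset of 50 gave 0.022 (adjusted p = 0.679), and quantile normalization over each array's detected probes 0.83 (0.996). The offset draws the change of so dim a probe toward 0, and the cause of the difference between settings was not tested. The replicate number as a block gave an adjusted p of 0.0640 on the normalized values and changed no call of a member. The normalized count of 65 became 144 with arrays 1 to 4 alone and 31 on scaled intensities, and 51 to 70 with 1 array left out. The scaled count of 23 became 41 with the replicate block, 60 with the set block, 111 with arrays 1 to 4 alone, 1 with the median of detected probes, 1 with that quantile normalization, 10 with detection on 2 arrays of each group, and 11 to 33 with 1 array left out. Dim probes close to the detection level limit all members.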
